A study of Mus musculus with 4 samples.

Results

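The Ly6/uPAR family is built on a small cysteine-rich fold in which disulfide bonds hold together 3 loops. Most of its proteins sit on the outer face of the plasma membrane through a glycosylphosphatidylinositol (GPI) anchor, whereas a few, such as SLURP1, are secreted. They serve as receptors, adhesion proteins and modulators of nicotinic acetylcholine receptors, and in stratified epithelia, the urothelium among them, several of them mark particular layers or differentiation states. Here, 10 of these genes were followed: *Lypd2*, *Slurp1*, *Ly6d*, *Psca*, *Lypd6*, *Lypd3*, *Plaur*, *Ly6a*, *Ly6c1* and *Ly6e*. They were chosen by name, as probes whose gene name was one of the 10, out of 29924 gene names on the array. Earlier results of these data were known when the list was made. Shares of the 10 given beside shares of all genes therefore describe these genes and do not test the family. All 10 passed the filter on dim probes, as did 20229 genes in all, and 2 of them, *Lypd6* and *Ly6c1*, were represented by more than 1 probe. The brightest probe stands for a gene unless another is named.

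The study asked how loss of the nuclear receptor PPARG changes gene expression in the ureter, and how far activation of SHH signaling alters that state. Ureters were explanted from mice at postnatal day (P) 0 on an NMRI outbred background and cultured for 8 days with the solvent DMSO or with 2 µM purmorphamine, an agonist of the SHH signal transducer smoothened. *Pparg-cKO* ureters were *Pax2-cre/+;Pparg fl/fl*, and controls were cre-negative littermates labelled *Pparg fl/?*, with the second allele not stated. *Pax2-cre* recombines in the nephric duct, the ureteric epithelium and the collecting ducts, so the mesenchyme of *Pparg-cKO* ureters keeps the gene. RNA from sex-sorted pools was hybridized on 4 two-color Agilent arrays, each with the DMSO and the purmorphamine pool of 1 genotype and 1 sex. Each of the 4 groups therefore had 2 pools, male for replicate 1 and female for replicate 2, with dyes exchanged between replicates, so sex, dye and replicate number cannot be told apart. How many ureters a pool held is not stated, and p-values measure only the spread between these pools.

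Between 66.3% and 70.5% of the spots of a channel lay well above background, and no spot was saturated. The *Pparg* probe was not used as a test of the deletion. The paper found that mutants make a *Pparg* transcript without the floxed exons, and whether the probe lies in these exons was not assigned. The *Pparg* signal differed by 0.51 ± 0.17 (log2, SE) between *Pparg-cKO* and control with DMSO. *Ptch1*, a SHH target used as a check of the treatment, rose with purmorphamine by 1.00 ± 0.12 in control and 1.62 ± 0.12 in *Pparg-cKO* (log2, SE, adjusted p = 0.046 and 0.014, limma with Benjamini-Hochberg adjustment). *Shh*, the epithelial ligand, was lower in *Pparg-cKO* with DMSO by -2.93 ± 0.23 (adjusted p = 0.0026). Superficial cell markers (*Krt20* and uroplakins) fell in *Pparg-cKO* with DMSO in 4 of 6 genes, and 5 of 6 rose with purmorphamine in *Pparg-cKO*. One pool stood apart. In the female *Pparg-cKO* DMSO pool the summed intensity of 13 squamous markers was 369457, against 68237 in the male pool and 49252 to 59071 in the 4 control pools. The mean log2 intensity of 11 myeloid markers was also higher there, at 14.32 against 13.27 in its male counterpart, but their summed intensity was not (308633 against 316243). *S100a8* and *S100a9*, genes of neutrophils that keratinocytes also express, carried that mean, with *Pparg-cKO* minus control differences of 5.97 and 8.71 in females and -1.42 and -1.14 in males, while the other 9 markers reached at most 0.45 in females. In bulk RNA of this kind, fewer cells of a type and less RNA per cell cannot be told apart.

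Of the 10 genes, 7 lie together on mouse chromosome 15, over 331 kb from *Psca* to *Ly6c1* in build mm9, the build of the array. Probes of 60 bases were used, and 3 of those in this cluster are shown because their letters code for the cysteines that define the family. Capitals mark the cysteine codons in the reading frame without a stop codon that holds most of them. The *Psca* probe lies at chr15:74546879-74546938 on the plus strand. The probe of *Ly6k*, a family member that is not among the 10 but sits beside *Ly6d*, lies at chr15:74627529-74627588 on the minus strand. The second *Ly6c1* probe lies at chr15:74877785-74877844 on the minus strand.

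Psca: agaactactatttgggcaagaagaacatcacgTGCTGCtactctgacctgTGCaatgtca
Ly6k: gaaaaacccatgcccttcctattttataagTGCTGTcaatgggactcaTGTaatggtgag
Ly6c1: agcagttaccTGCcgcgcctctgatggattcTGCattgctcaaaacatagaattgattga

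In the *Psca* and *Ly6k* probes, 2 adjacent cysteine codons are followed, after 4 other codons, by a cysteine codon and an asparagine codon, the arrangement that closes the Ly6 fold. Read in the 3 forward frames, 8 of 39429 probes (0.0203%) held it, and 5 of these 8 belonged to genes listed here as family members. The probes of the pair called higher in *Pparg-cKO* lie between *Psca* and *Ly6d*: *Slurp1* at chr15:74557085-74557144 and *Lypd2* at chr15:74562684-74562743, both on the minus strand and 5.6 kb apart. *Ly6d* follows at chr15:74592551-74592610, again on the minus strand and 29.9 kb beyond *Lypd2*. Exons and untranslated regions under the probes were not assigned, since no annotation of this build was used here. Outside the cluster, *Lypd6* lies on chromosome 2 and *Plaur* and *Lypd3* on chromosome 7.

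In *Pparg-cKO* ureters, *Lypd2* and *Slurp1* were higher than in control with either culture medium, whereas *Ly6d* and *Lypd6* had lower levels in all 4 *Pparg-cKO* pools than in all 4 control pools. For these 4 of 10 genes the pools of the genotypes did not overlap, a pattern shown by 13.4% of all genes tested. With DMSO, 2 of 10 genes were called higher (1.91% of all genes tested) and none lower (1.76% of all genes), by limma on separate channels at an adjusted p under 0.05. Of these, *Slurp1* passed the filter on dim probes only through its *Pparg-cKO* pools. At an unadjusted p under 0.05 there were 6 of 10 with DMSO (15.8% of all genes) and 8 of 10 with purmorphamine (15.6%). The rule of the methods (defined with the purmorphamine results) named 4 of 10 with DMSO (5.5% of all genes), *Lypd2* higher and *Ly6d*, *Lypd6* and *Psca* lower, and 6 of 10 with purmorphamine (6.28%). With purmorphamine, 2 were called higher (1.15% of all genes) and 1, *Lypd6*, lower (1.72% of all genes). The median log2 difference of the 10 genes was -0.12 with DMSO and 0.21 with purmorphamine, beside medians of 0 over all genes in both comparisons.

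**Figure D1:**
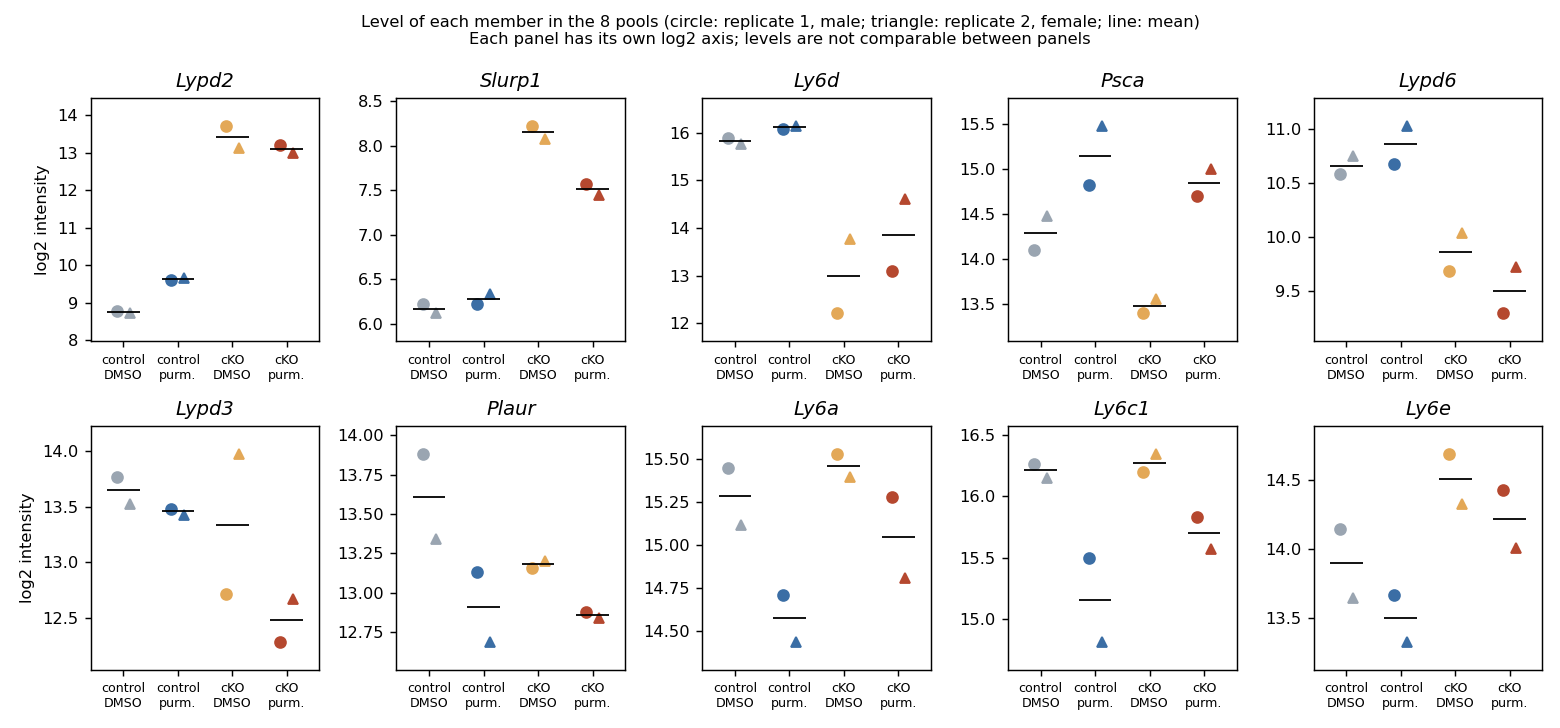
Log2 intensity of each of the 10 genes (brightest probe) in the 8 pools, by group on the x axis, with circles for replicate 1 (male), triangles for replicate 2 (female) and lines for group means; each panel has its own log2 axis. *Lypd2* and *Slurp1* sit higher in all 4 *Pparg-cKO* pools, *Ly6d* and *Lypd6* lower, and *Psca* is highest in the purmorphamine pools of its genotype.

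*Lypd2*, a GPI-anchored family member, had log2 intensities of 8.78 and 8.71 in the male and female control DMSO pools, 9.60 and 9.65 in control with purmorphamine, 13.71 and 13.13 in *Pparg-cKO* with DMSO, and 13.21 and 12.99 in *Pparg-cKO* with purmorphamine. Every *Pparg-cKO* pool was above every control pool. The difference was 25.6-fold with DMSO (log2 4.68 ± 0.19, SE, n = 2 pools per group, adjusted p = 0.00071, limma) and 11.1-fold with purmorphamine (3.47 ± 0.19, adjusted p = 0.0013). The pool with high squamous markers was the lower of the 2 *Pparg-cKO* DMSO pools for *Lypd2*, and how these markers relate to *Lypd2* was not tested. When single arrays were left out the DMSO difference ranged from 4.42 to 4.98. With purmorphamine the call was lost without control replicate 1 (log2 3.42, adjusted p = 0.062) or control replicate 2 (3.48, 0.066).

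*Slurp1* encodes a secreted family member that acts on nicotinic receptors and is known from the palmoplantar skin disorder caused by its loss. It gave 6.22 and 6.12 in control with DMSO, 6.22 and 6.34 in control with purmorphamine, 8.22 and 8.07 in *Pparg-cKO* with DMSO, and 7.57 and 7.45 in *Pparg-cKO* with purmorphamine. The control pools were not well above background with either medium, whereas all 4 *Pparg-cKO* pools were. *Slurp1* was therefore at least 3.29-fold higher in *Pparg-cKO* with DMSO and at least 2.21-fold higher with purmorphamine. These bounds set the *Pparg-cKO* mean against the lowest signal counted as well above background on the control arrays. The p-values belong to the fitted log2 differences and not to the bounds: 1.98 ± 0.11 and 1.23 ± 0.11 (adjusted p = 0.00093 and 0.0058, limma). The probe passed the filter on dim probes only through its *Pparg-cKO* pools. Without control replicate 1, control replicate 2 or *Pparg-cKO* replicate 1 the purmorphamine call was lost. The fitted DMSO difference ranged from 1.90 to 2.07 when single arrays were left out.

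*Ly6d*, a GPI-anchored protein of keratinocytes and urothelium, had lower levels in *Pparg-cKO*. It measured 15.89 and 15.76 in control with DMSO, 16.07 and 16.14 in control with purmorphamine, 12.21 and 13.78 in *Pparg-cKO* with DMSO, and 13.09 and 14.61 in *Pparg-cKO* with purmorphamine. Every *Pparg-cKO* pool was below every control pool, but the *Pparg-cKO* pools lay far apart, and the female pools were the higher ones with both media. The log2 difference was -2.83 ± 0.58 with DMSO (95% interval of the fit -4.22 to -1.44, adjusted p = 0.055, limma) and -2.26 ± 0.58 with purmorphamine (adjusted p = 0.11), so neither passed the threshold. The within-sex differences with DMSO were -3.68 (male) and -1.98 (female). Leaving out *Pparg-cKO* replicate 1 or *Pparg-cKO* replicate 2 gave -2.04 and -3.62, and leaving out control replicate 1 or control replicate 2 gave -2.75 and -2.91. Such fits leave 1 pool in a group and cannot measure its spread. With the replicate number as a block the DMSO difference had an adjusted p of 0.035 (limma). The pairing of same-numbered pools that this block assumes, here and below, was not established (r = -0.15 across genes for the DMSO pools).

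*Lypd6* encodes a GPI-anchored protein known to bind nicotinic receptors and to act on WNT coreceptors. Its brighter probe read 10.58 and 10.75 in control with DMSO, 10.68 and 11.03 in control with purmorphamine, 9.68 and 10.04 in *Pparg-cKO* with DMSO, and 9.29 and 9.72 in *Pparg-cKO* with purmorphamine. All *Pparg-cKO* pools were below all control pools. The level in *Pparg-cKO* was lower by 2.56-fold with purmorphamine (log2 -1.35 ± 0.20, adjusted p = 0.024, limma), a call lost without *Pparg-cKO* replicate 1 (-1.15, adjusted p = 0.14), without control replicate 1 (-1.52, 0.13) and without control replicate 2 (-1.17, 0.21), and with the scanner's processed intensities (-1.39, 0.066). With DMSO the difference was -0.80 ± 0.20 (adjusted p = 0.097, and 0.020 with the replicate block). The dimmer *Lypd6* probe had differences of -0.46 ± 0.12 with DMSO and -0.63 ± 0.12 with purmorphamine (adjusted p = 0.12 and 0.052).

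*Psca*, the prostate stem cell antigen, is an anchored surface protein of differentiated urothelium. With DMSO it measured 14.10 and 14.48 in control and 13.40 and 13.56 in *Pparg-cKO*, without overlap, a log2 difference of -0.81 ± 0.24 (adjusted p = 0.15, limma, and 0.040 with the replicate block). With purmorphamine the levels were 14.83 and 15.48 in control and 14.70 and 15 in *Pparg-cKO*. These overlapped, and the difference of -0.30 ± 0.24 had a 95% interval of -0.86 to 0.26 (adjusted p = 0.63).

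**Figure D2:**
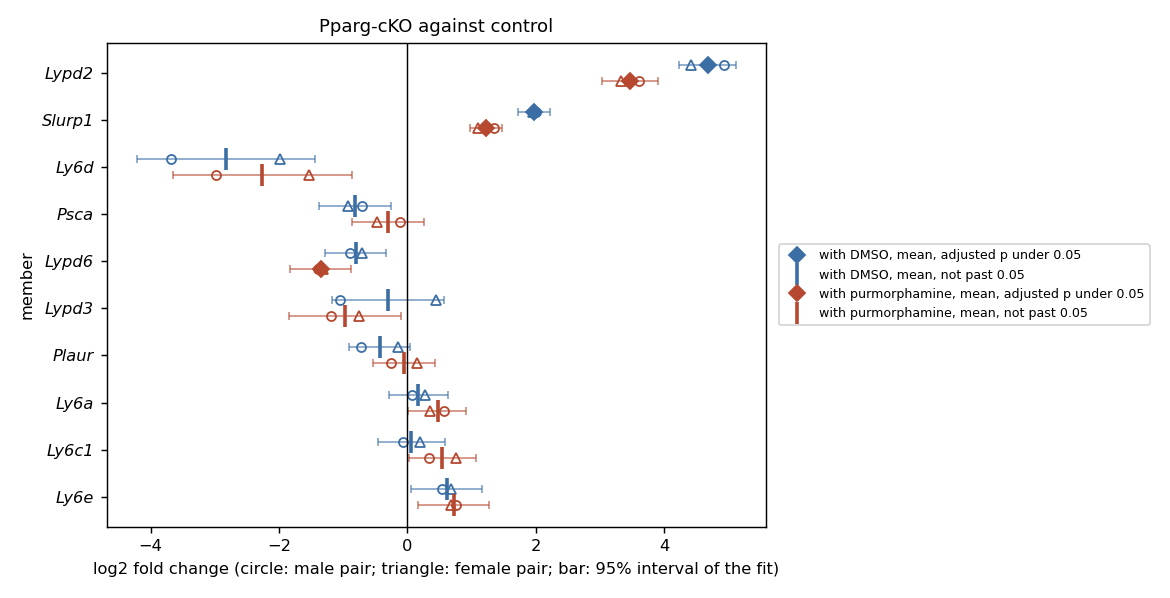
Log2 fold change of *Pparg-cKO* against control for the 10 genes with DMSO (blue) and with purmorphamine (red); circles and triangles are the male and female pairs, bars the 95% interval of the fit, and diamonds mark an adjusted p under 0.05. *Lypd2* (4.68 and 3.47) and *Slurp1* lie to the right, *Ly6d* and *Lypd6* to the left; for *Slurp1* the control pools were not well above background, so its plotted values are fitted differences and not bounds.

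*Lypd3* (C4.4A), an adhesion protein of stratified squamous epithelia that binds laminin and the secreted protein AGR2, ran opposite ways in the sexes with DMSO. It measured 13.77 and 13.52 in control with DMSO against 12.72 and 13.97 in *Pparg-cKO* with DMSO, and 13.48 and 13.43 against 12.29 and 12.67 with purmorphamine. The DMSO groups overlapped, because the female *Pparg-cKO* pool, the one with high squamous markers, was the highest and the male one the lowest. How the squamous markers relate to *Lypd3* was not tested. The log2 difference was -0.30 ± 0.37 with DMSO (adjusted p = 0.80, limma), and turned to 0.33 (adjusted p = 0.63) without *Pparg-cKO* replicate 1. With purmorphamine both *Pparg-cKO* pools were below both control pools, with a difference of -0.97 ± 0.37 (adjusted p = 0.26, limma). It ranged from -1.16 to -0.79 when single arrays were left out. Of the Lypd3 ligands, 3 of 4 were tested. *Agr2* was higher in *Pparg-cKO* by 1.88 ± 0.12 with DMSO and 1.64 ± 0.12 with purmorphamine (adjusted p = 0.0015 and 0.0039), whereas *Itgb4* and *Lamb1* were not called.

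*Plaur* encodes uPAR, the receptor that holds urokinase at the cell surface. It measured 13.88 and 13.34 in control and 13.16 and 13.20 in *Pparg-cKO* with DMSO, and 13.13 and 12.69 against 12.88 and 12.84 with purmorphamine. The genotypes did not overlap with DMSO and did with purmorphamine. The differences between the genotypes, -0.43 ± 0.20 with DMSO and -0.05 ± 0.20 with purmorphamine, did not pass the threshold (adjusted p = 0.39 and 0.95, limma). Of the plasminogen activator system around it, 16 of 18 genes were tested and none was called between the genotypes, with list medians of -0.10 and -0.09. The lowest adjusted p with DMSO belonged to *Serpine2*, a serpin that blocks urokinase (0.45 ± 0.12, adjusted p = 0.12), and *Lrp1*, which clears such complexes (-0.41 ± 0.17, adjusted p = 0.33).

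*Ly6a* (Sca-1) marks stem, stromal and endothelial cells, *Ly6c1* marks endothelial and myeloid cells, and *Ly6e* is known from the interferon response. None was called between the genotypes. With DMSO, *Ly6a* measured 15.45 and 15.12 in control and 15.53 and 15.40 in *Pparg-cKO* (0.17 ± 0.19, adjusted p = 0.78), and *Ly6c1* 16.26 and 16.15 against 16.20 and 16.34 (0.06 ± 0.22, adjusted p = 0.95); both overlapped. With purmorphamine both genes were higher in both *Pparg-cKO* pools than in both control pools, at 15.28 and 14.81 against 14.71 and 14.44 for *Ly6a* (0.47 ± 0.19, unadjusted p = 0.046, adjusted p = 0.30, limma) and 15.83 and 15.57 against 15.50 and 14.82 for *Ly6c1* (0.54 ± 0.22, unadjusted p = 0.045, adjusted p = 0.30). The rule of the methods named *Ly6c1* there through its second probe and not its brightest. *Ly6e* measured 14.15 and 13.65 in control and 14.69 and 14.33 in *Pparg-cKO* with DMSO, and 13.67 and 13.33 against 14.43 and 14.01 with purmorphamine. The *Ly6e* groups did not overlap with either medium, and the differences of 0.61 ± 0.23 and 0.72 ± 0.23 missed the threshold (adjusted p = 0.27 and 0.19, limma) except with the replicate block (0.033 and 0.027). Because *Ly6c1* has a near-identical copy, *Ly6c2*, its signal may include that gene. Of 18 interferon response genes none was called in these comparisons, with list medians of 0.48 with DMSO and 0.22 with purmorphamine. *Isg15* (0.74 ± 0.24, adjusted p = 0.20) and *Irf7* (0.51 ± 0.18, adjusted p = 0.23) had the lowest adjusted p with DMSO.

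Purmorphamine was followed by higher *Psca* and *Ly6d* and lower *Slurp1* in *Pparg-cKO* ureters, where 2 of 10 genes were called higher (1.85% of all genes) and 1 lower (2.81% of all genes) by limma on the log ratios of the arrays. In control ureters none was called higher (0.282% of all genes) or lower (0.919%) at an adjusted p under 0.05, while an unadjusted p under 0.05 was found for 7 of 10 in control (19.6% of all genes) and 9 of 10 in *Pparg-cKO* (22.2%). The rule of the study's methods, a change of 1.5-fold or more shared by both replicates at intensities over 100, named 5 of the 10 in control: *Lypd2* and *Psca* higher and *Ly6a*, *Ly6c1* and *Plaur* lower (6.45% of all genes in either direction). In *Pparg-cKO* it named 2, *Psca* and *Ly6d* (8.67%). The changes of all 10 genes had the same sign on both arrays of a genotype, in control (where *Slurp1* was not well above background) as in *Pparg-cKO*, beside 58.9% and 70% of all genes. The median log2 change was -0.04 in control and -0.34 in *Pparg-cKO*, against 0.02 and 0 over all genes.

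In *Pparg-cKO*, *Psca* rose on both arrays, by 1.31 (male) and 1.44 (female) on the log2 scale, a 2.59-fold increase (1.37 ± 0.12, adjusted p = 0.016, limma). In control it changed by 0.73 and 1.00, 1.82-fold (0.86 ± 0.12, adjusted p = 0.055). *Ly6d* rose in *Pparg-cKO* by 0.87 and 0.83 (0.85 ± 0.11, adjusted p = 0.030), and its change in control was 0.28 ± 0.11 (adjusted p = 0.26). With purmorphamine both *Pparg-cKO* pools had more *Psca* than both control DMSO pools, whereas *Ly6d* stayed below them. The *Psca* call was lost without *Pparg-cKO* replicate 2 (1.31, adjusted p = 0.072), and the *Ly6d* call without either *Pparg-cKO* array (adjusted p = 0.11 and 0.20). With the scanner's processed intensities neither was called (adjusted p = 0.097 for *Psca* and 0.11 for *Ly6d*), nor was any gene on the array. Superficial urothelial markers moved beside them. All 6 had positive changes in both genotypes, with list medians of 0.78 in control and 1.58 in *Pparg-cKO*, and the mean log2 level of the list in *Pparg-cKO* went from 13.11 and 13.13 with DMSO to 14.40 and 14.84. Their part in the *Psca* and *Ly6d* changes was not tested.

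*Slurp1* was lower with purmorphamine in *Pparg-cKO* by -0.65 and -0.63 (-0.64 ± 0.11, adjusted p = 0.049, limma). This call sat at the threshold and was lost without the filter on dim probes (adjusted p = 0.069), with outlier spots kept (0.054), with the replicate block (0.059), with processed intensities (0.095), and without *Pparg-cKO* replicate 1 (0.24) or replicate 2 (0.39). In control it was not well above background with either medium, so no change is given. *Lypd2* changed by 0.82 and 0.94 in control (0.88 ± 0.13, adjusted p = 0.063) and by -0.50 and -0.14 in *Pparg-cKO* (-0.32 ± 0.13, adjusted p = 0.24). Squamous markers were also lower with purmorphamine in *Pparg-cKO*: none of the 13 tested had a positive change there and 2 were called lower. Their median was -0.91 for males and -2.83 for females, whereas the *Slurp1* and *Lypd2* changes were not larger in females. In control, where *Lypd2* had a positive change, the squamous median was -0.16. The summed intensity of the list went from 68237 (male) and 369457 (female) with DMSO to 52652 and 68357 with purmorphamine. Each of the 13 tested genes was well above background in at least 1 pool of each group. *Krt4*, the only squamous marker called in either direction between the genotypes with DMSO, was lower with purmorphamine by -1.12 ± 0.14 (adjusted p = 0.026). How the squamous markers relate to *Slurp1* and *Lypd2* was not tested.

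**Figure D3:**
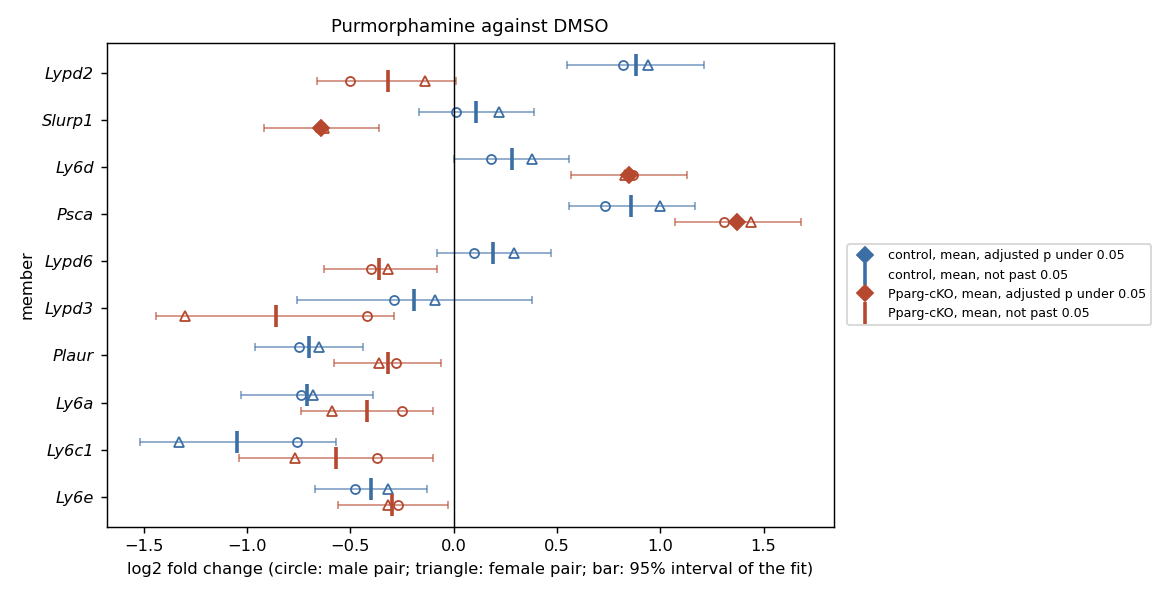
Log2 fold change of purmorphamine against DMSO for the 10 genes in control (blue) and *Pparg-cKO* (red), with circles and triangles for the male and female arrays, bars for the 95% interval of the fit and diamonds for an adjusted p under 0.05. *Psca* and *Ly6d* lie to the right in both genotypes, *Plaur*, *Ly6a*, *Ly6c1* and *Ly6e* to the left in both, and *Lypd2* on opposite sides (0.88 and -0.32); *Slurp1* in control was not well above background, so its plotted value there is no measured change.

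*Ly6a*, *Ly6c1* and *Ly6e* had negative changes on every array, and none passed the threshold. *Ly6c1* changed by -0.76 and -1.33 in control (-1.05 ± 0.18, adjusted p = 0.086, limma) and by -0.37 and -0.77 in *Pparg-cKO* (-0.57 ± 0.18, adjusted p = 0.17). Its second probe, shown above, gave -1.42 ± 0.28 and -0.59 ± 0.28. *Ly6a* changed by -0.71 ± 0.12 in control and -0.42 ± 0.12 in *Pparg-cKO* (adjusted p = 0.085 and 0.15), and *Ly6e* by -0.40 ± 0.10 and -0.30 ± 0.10 (adjusted p = 0.15 and 0.20). In control the *Ly6a* pools with purmorphamine, at 14.71 and 14.44, did not overlap those with DMSO, at 15.45 and 15.12, and the *Ly6c1* pools, at 15.50 and 14.82 against 16.26 and 16.15, did not either. *Ly6c1* passed the threshold in control with the replicate block (adjusted p = 0.046, limma). Myeloid markers went down beside them, with 4 of 11 called lower in control and 3 of 11 in *Pparg-cKO*, among them *C1qa*, *C1qb* and *Fcgr3*, and list medians of -0.85 and -0.77. Endothelial markers went the other way, with 1 of 11 called higher in control and 2 of 11 in *Pparg-cKO* and medians of 0.49 in both, *Tek* rising by 1.26 ± 0.15 and 2.00 ± 0.15. Of the interferon genes, 1 of 18, *Oas1a*, was called lower in *Pparg-cKO* (-1.11 ± 0.17, adjusted p = 0.040), and none of the 18 had a positive change in either genotype. The part of these cells in the *Ly6a*, *Ly6c1* and *Ly6e* values was not tested.

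*Plaur* changed by -0.75 and -0.65 in control (-0.70 ± 0.10, adjusted p = 0.061, limma) and by -0.28 and -0.36 in *Pparg-cKO* (-0.32 ± 0.10, adjusted p = 0.17). In its system, *Serpinb2*, an inhibitor of urokinase, fell by 2.22 on the log2 scale in control (± 0.22, adjusted p = 0.037) and by 1.95 in *Pparg-cKO* (± 0.22, adjusted p = 0.024). *Fpr1* and *Fpr2*, formyl peptide receptors of myeloid cells through which cleaved uPAR acts, were lower in *Pparg-cKO* by -1.52 ± 0.17 and -1.76 ± 0.30 (adjusted p = 0.022 and 0.048). In all, 1 of 16 genes of the system was called lower in control and 3 of 16 in *Pparg-cKO*, and none higher. *Lypd3* changed by -0.29 and -0.09 in control and by -0.42 and -1.30 in *Pparg-cKO* (-0.86 ± 0.22, adjusted p = 0.11). The larger value came from the array whose DMSO pool had high squamous markers. *Lypd6* changed by 0.19 ± 0.11 in control and -0.36 ± 0.11 in *Pparg-cKO* (adjusted p = 0.42 and 0.15). Its dimmer probe gave 0.07 ± 0.10 and -0.10 ± 0.10.

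**Figure D4:**
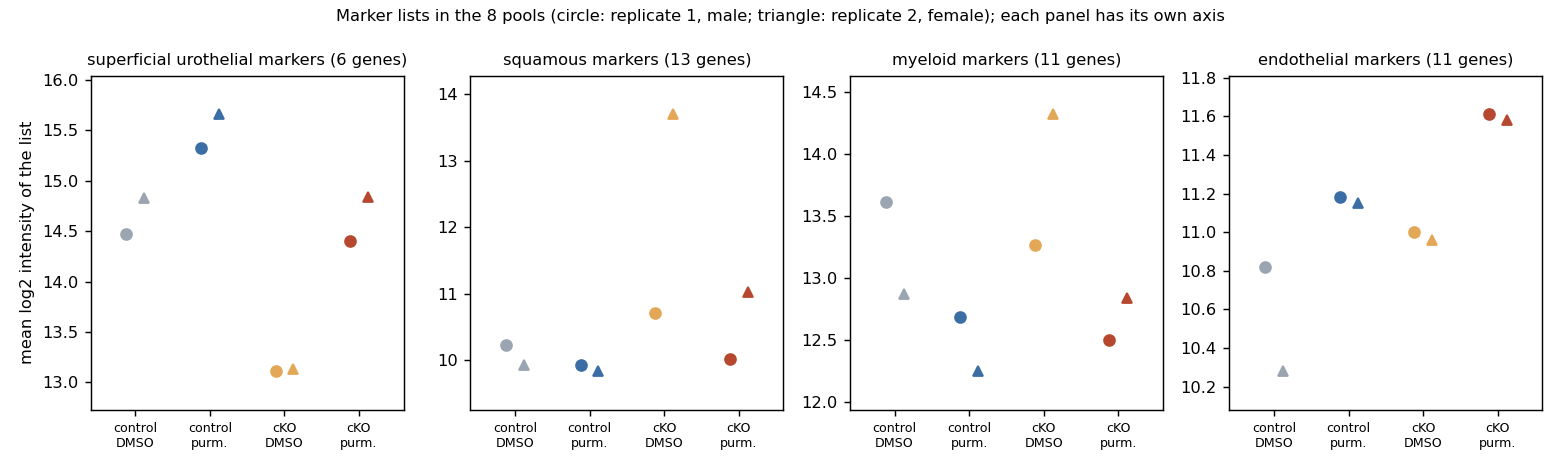
Mean log2 intensity of 4 marker lists in the 8 pools, by group on the x axis, with circles for replicate 1 (male) and triangles for replicate 2 (female); each panel has its own axis. Superficial markers are lowest in the *Pparg-cKO* DMSO pools, squamous markers highest in 1 of them (13.70), myeloid markers lower and endothelial markers higher with purmorphamine in both genotypes.

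Whether the purmorphamine response differed between the genotypes was tested as the difference of both responses. No gene on the array passed an adjusted p under 0.05 in limma (0% of 20229 genes), while 319 genes had a larger and 351 a smaller response in *Pparg-cKO* at an unadjusted p under 0.05, 3.31% of all genes in either direction, and 6 of the 10 genes passed that cut, *Slurp1* with its control pools not well above background among them. *Lypd2* had the lowest p of the 10 (difference -1.21 ± 0.18, unadjusted p = 0.0012, adjusted p = 0.98). *Psca* and *Ly6d* responded with 0.51 ± 0.17 and 0.57 ± 0.15 more in *Pparg-cKO* (unadjusted p = 0.029 and 0.013, adjusted p = 1 for both).

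The cluster on chromosome 15 held genes higher and genes lower in *Pparg-cKO*. The array named 20 genes from *Psca* to *Ly6c1*, 11 of them under names listed here with the family, and 13 of the 20 were tested. With DMSO, 2 were called higher in *Pparg-cKO* (1.91% of all genes), the adjacent *Slurp1* and *Lypd2*. *Slurp1* passed the filter on dim probes only through its *Pparg-cKO* pools. The 1 called lower (1.76% of all genes) was *Ly6k* (-1.78 ± 0.30, adjusted p = 0.029, limma). *Them6*, between *Psca* and *Slurp1* and no member of the family, differed by -0.07 (adjusted p = 0.87), and *Lynx1*, a nicotinic receptor modulator between *Lypd2* and *Ly6d*, by 0.09 (adjusted p = 0.79). At the far end of the cluster, *Ly6e*, *Ly6i*, *Ly6a* and *Ly6c1* had differences from 0.06 to 0.61, none of them called.

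**Figure D5:**
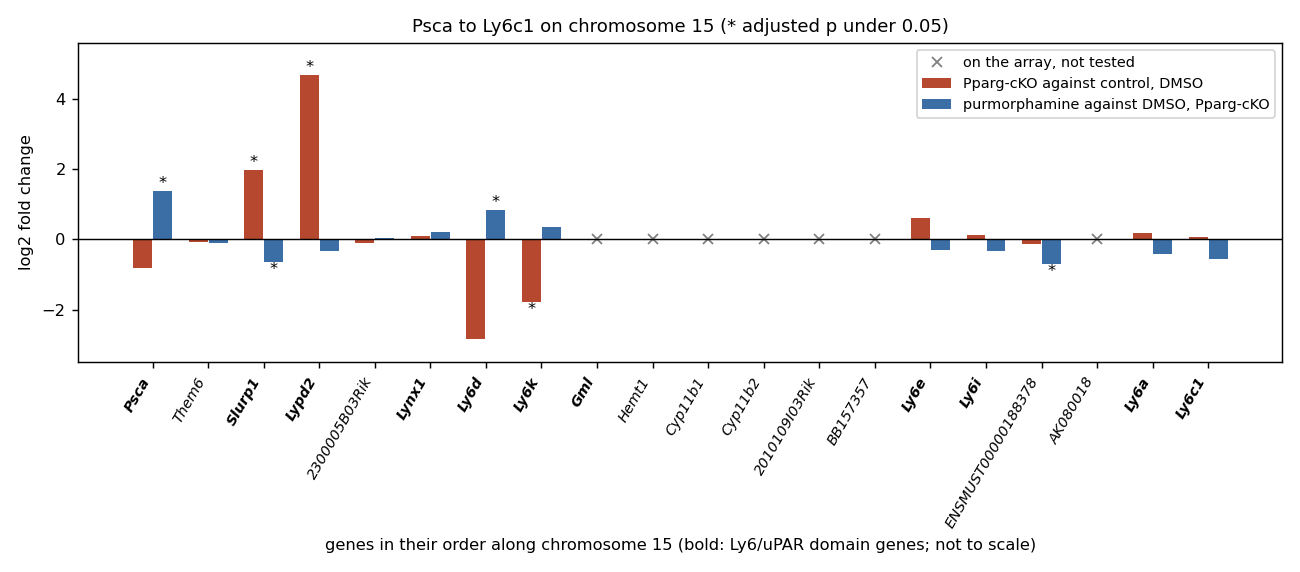
Log2 fold change of the 20 genes from *Psca* to *Ly6c1* in their order along chromosome 15 (x axis, not to scale) for *Pparg-cKO* against control with DMSO (red bars) and purmorphamine against DMSO in *Pparg-cKO* (blue bars), with stars for an adjusted p under 0.05 and crosses for genes not tested. *Slurp1* and *Lypd2* (4.68) stand next to each other above 0, and *Ly6d* and *Ly6k* (-1.78) next to each other below 0.

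Of 27 other genes on the array listed with the family, 20 were tested. The protein domains of the listed genes were not checked here. With DMSO, 3 were called higher (1.91% of all genes) and 1 lower (1.76%) in *Pparg-cKO*. With purmorphamine, 1 was called higher (1.15% of all genes) and none lower (1.72%). The medians were 0.18 and 0.21. Those higher with DMSO, *Ly6g6d* (1.15 ± 0.17, adjusted p = 0.017), *Ly6g6f* (0.99 ± 0.17, adjusted p = 0.029) and *Ly6g6e* (0.92 ± 0.12, adjusted p = 0.011), are neighbors in the MHC class III region, where transcripts that read through from one gene into the next are known, so their probes may not be independent. *Ly6g6e* was also higher with purmorphamine (0.80 ± 0.12, adjusted p = 0.024). The lower gene was *Ly6k*. Purmorphamine called none of the 20 in either genotype. Nicotinic receptor subunits, some of which SLURP1, LYPD6 and LYNX1 can bind, were above the filter for 6 of 16 genes. *Chrnb1* was higher in *Pparg-cKO* with DMSO (0.90 ± 0.13, adjusted p = 0.018) and *Chrnb2* lower with purmorphamine (-0.65 ± 0.12, adjusted p = 0.049). The 6 genes were dim, with a mean log2 level of 7.04 to 7.23 per pool. The lowest signals counted as well above background were 6.28 to 6.50. Of 14 genes that build or attach the GPI anchor, none was called in any comparison, *Pigm* having the lowest adjusted p (0.089, *Pparg-cKO* against control with purmorphamine, -0.46 ± 0.11).

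Among 1948 other genes whose log2 level varied with an SD of at least 0.5 over the 8 pools, those most like *Lypd2* by Pearson's r were *Pde8b*, *Limch1* and *Rhpn2*, each at 0.992. Those most like *Slurp1* were *Bmx* (0.998), *Kcnk7* (0.996) and *Gnat3* (0.996), a taste-type G protein subunit. Those most like *Lypd6* were *Mreg* (0.979), *Nat8l* (0.978) and *Aldh1a7* (0.968). The 8 pools share arrays in pairs, and with 4 groups a gene that separates the genotypes correlates highly with any other that does, so these values describe likeness only. *Slurp1* was not well above background in control, so its r values, that with *Lypd2* included, rest partly on such signals. Within the 10 genes, *Lypd2* and *Slurp1* had an r of 0.97, *Lypd2* and *Ly6d* of -0.91, and *Ly6a* and *Ly6c1* of 0.93.

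The order of the groups differed among the genes. For *Lypd2* the group means rose from 8.74 ± 0.05 in control DMSO through 9.63 ± 0.04 in control purmorphamine and 13.10 ± 0.16 in *Pparg-cKO* purmorphamine to 13.42 ± 0.41 in *Pparg-cKO* DMSO (log2, SD, n = 2), where both *Pparg-cKO* groups overlapped. *Slurp1* had the same outer order, but its control groups, not well above background, have none. For *Ly6d* the means ran from *Pparg-cKO* DMSO (13.00 ± 1.10) and *Pparg-cKO* purmorphamine (13.85 ± 1.08), which overlapped, to control DMSO (15.83 ± 0.09) and control purmorphamine (16.11 ± 0.05). *Psca* was lowest in *Pparg-cKO* DMSO (13.48 ± 0.11), followed by control DMSO (14.29 ± 0.27) and the overlapping purmorphamine groups of *Pparg-cKO* (14.85 ± 0.21) and control (15.15 ± 0.46). *Ly6a* and *Ly6c1* shared 1 order, from control purmorphamine through *Pparg-cKO* purmorphamine and control DMSO to *Pparg-cKO* DMSO, with the DMSO groups of both genotypes overlapping.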

How the data were processed

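RNA of 8 pools was measured on 4 two-color arrays. Per the file headers, the authors read a mean intensity and a local background intensity per spot and dye, a processed intensity with background and dye bias removed, and its log10 ratio of red over green, which was not used, with the scanner software (Agilent Feature Extraction 10.7.3.1 in the submitters' processing notes); spot flags were deposited beside them. The authors also deposited a series table of 1 score per gene probe and array, a signed fold change with a median of 1 in every column; its log2 values correlated with the purmorphamine over DMSO log ratios at r = 0.958 to 0.971, which gave its scale and direction, and its centring is not known. The direction of ratios was taken from the dyes in the labels.

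From the mean intensity, background was corrected with normexp (offset 50), arrays were normalized by loess and, for separate channels, by Aquantile, all in limma 3.58.1 (R 4.3.3). Control and outlier spots were left out, the 4 spots of a probe averaged, and 27064 probes kept that were well above background in at least 3 of 4 spots in both pools of a group. Genotypes were compared with lmscFit (intraspot correlation 0.059), treatments with lmFit on log ratios, both with eBayes and Benjamini-Hochberg adjustment over all probes tested. Error is the SE of the fit, n = 2 pools per group. The code was tested on simulated data. The number of arrays limits the precision.

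The rule for named genes takes all 10 members, of each other list up to 4 called genes (or those of lowest adjusted p), SHH checks, and the 3 genes most like each member called between genotypes. The members and lists were chosen with earlier results of these data known. Alternatives are given in the closing section.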

Additional observations from a re-analysis of the deposited data

Results flagged for a closer look

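For *Lypd2* the purmorphamine response ran opposite ways in the genotypes: the log ratios were 0.82 and 0.94 in control and -0.50 and -0.14 in *Pparg-cKO*, a difference of -1.21 (limma, unadjusted p = 0.0012, adjusted p = 0.98). For *Lypd6* they were 0.10 and 0.29 in control and -0.40 and -0.32 in *Pparg-cKO*, a difference of -0.55 (unadjusted p = 0.015, adjusted p = 1). The dimmer *Lypd6* probe gave 0.12 and 0.01 in control and -0.13 and -0.07 in *Pparg-cKO*, a smaller difference of -0.17 ± 0.14 (limma, unadjusted p = 0.29). None of these differences passed the adjustment over all genes, and their cause was not tested.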

How the results depend on the processing

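Of the members' log2 changes under tested alternatives, 528 kept their direction and side of the threshold, 23 lost and 33 gained the call, and 6 turned sign, none of them called: between genotypes with purmorphamine *Plaur* (0.17 without control replicate 1, leave-one-out range -0.28 to 0.17) and *Psca* (0.03 without control replicate 2, -0.62 to 0.03), and with DMSO *Lypd3* (0.33 without *Pparg-cKO* replicate 1, -0.93 to 0.33), *Ly6c1* (-0.01 without *Pparg-cKO* replicate 2, -0.01 to 0.13) and, without Aquantile, *Ly6a* (-0.06) and *Ly6c1* (-0.16). Against 2 members called between genotypes with DMSO, the rule of the methods called 4 (5.5% of all genes). The replicate block called 6, beside 369 genes higher and 335 lower over all genes. With purmorphamine, 3 were called, the rule 6 (6.28%), and leaving out 1 array gave 0 to 5. For purmorphamine in control, with 0 called, the rule gave 5 (6.45%). The block gave 1, beside 64 genes higher and 234 lower over all genes, and the mean of all probes 1, beside 79 and 221. Leaving out arrays changed this count too. In *Pparg-cKO*, with 3 called, processed intensities gave 0, the rule 2 (8.67%), and leaving out arrays 0 to 3. The count of members whose genotypes did not overlap was 4 under every normalization tried. The cause of these shifts was not tested, beyond that fewer arrays leave fewer degrees of freedom, and a lone pool is assumed to vary like the others; leave-one-out and block fits used the main intraspot correlation.

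Same-numbered pools shared sex and dye; their deviations correlated across genes at r = -0.15 (DMSO), 0.47 (purmorphamine) and 0.12 (log ratios), which does not establish a pairing. The replicate block moved called genes for DMSO from 387 higher and 357 lower to 369 and 335. Over all genes, processed intensities called 247 higher and 189 lower with DMSO and 99 and 106 with purmorphamine between genotypes, and none for purmorphamine in either genotype, and without the filter on dim probes purmorphamine called none in control and 123 higher and 166 lower in *Pparg-cKO*. Leaving out single arrays called 28 to 256 genes higher and 12 to 152 lower between genotypes with DMSO, 12 to 106 and 4 to 210 with purmorphamine, and for purmorphamine 0 to 213 and 0 to 393 in control and 45 to 418 and 119 to 669 in *Pparg-cKO*; the difference between the responses gave at most 39. With the pairing crossed, chosen after seeing the data, 325 and 270 genes and 3 members were called. Without Aquantile, 335 genes were higher and 680 lower with DMSO, and 183 and 706 with purmorphamine. The methods' rule gives no value for the difference between the responses. The series table's log2 values lay over 1 SD from the fit for *Lypd2* in control (1.03) and for *Ly6d* (0.89) and *Slurp1* (-0.88) in *Pparg-cKO*.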
